A study of Mus musculus with 8 samples.

Results

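Erythroid genes are the genes by which red blood cells make haemoglobin and build their membrane. The genes examined here form groups for globins, heme synthesis and iron, the membrane skeleton and blood groups, and transcription factors and other regulators. All 32 were chosen by name, with earlier results of these data known. Of these, 31 had a probe set that names 1 gene and were among 19356 genes measured, while Epb41, which encodes a membrane skeleton protein, was not analysed here. They were measured in the caudal part of the urogenital ridge, the tissue from which the kidney starts, of E10.75 mouse embryos. There were 4 Sox11 knockout (Sox11-/-) and 4 wild type replicates, each on its own array, all from mice of mixed genetic background and all untreated. How the null allele was made, and how many embryos went into each RNA sample, are not stated in the labels. The labels call the replicates independent. The p-values weigh the difference between genotypes against the spread between replicates, which the fit draws towards a value shared by all genes.

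At this stage the blood of the mouse embryo holds mainly primitive red cells, which arise in the yolk sac, circulate with their nuclei and carry embryonic globins. Their programme is driven by GATA1, which works with the cofactor FOG1 (Zfpm1) and in a complex with TAL1 and LMO2, and by KLF1. These factors switch on heme synthesis, iron uptake, globins and the proteins that anchor the spectrin network to the membrane. In a dissected tissue such genes can be read from the red cells in its vessels. Some genes examined here, such as Add2, Bcl11a, Tmod1, Lmo2 and Tfrc, are also made in other cells. Fewer red cells, less RNA per cell and a change in other cells cannot be told apart here.

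The erythroid genes lay mostly lower in knockout ridges, by small amounts, and none passed the test across all genes. Of the 31 genes, 26 were below 0 (83.9%), where 50.1% of all genes were, and the median change was -0.19 on the log2 scale, knockout minus wild type, against -0.0005 over all genes. The largest differences were in membrane and blood group genes, with the adducin gene Add2 at -0.59, the Rh protein gene Rhd at -0.51 and its partner Rhag at -0.45. The early blood factor genes Tal1 and Lmo2 were at -0.00026 and 0.02. Wild type replicate 4 had erythroid levels among those of the knockouts, and counts are given with and without it.

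Sequence at the start of 6 genes is shown because a GATA motif is frequent in this group: 5 genes carry it and Add2, which had the largest difference, does not. Windows of 300 bases, from 250 before to 50 after the start of the gene, were read from RefSeq's promoter table (GRCm38.p6), which gave 26 windows for 23 of the 31 genes. They were searched on both strands for the GATA motif, spelled AGATAA in one form and with a T as first letter in the other, and for a CACCC box, spelled CACACCC, of the kind bound by KLF factors. The motifs do not overlap in any window printed here. Capitals mark every match, and each window runs 5′ to 3′ along the gene's own strand.
Rhd (chr4:134864286-134864585, plus strand): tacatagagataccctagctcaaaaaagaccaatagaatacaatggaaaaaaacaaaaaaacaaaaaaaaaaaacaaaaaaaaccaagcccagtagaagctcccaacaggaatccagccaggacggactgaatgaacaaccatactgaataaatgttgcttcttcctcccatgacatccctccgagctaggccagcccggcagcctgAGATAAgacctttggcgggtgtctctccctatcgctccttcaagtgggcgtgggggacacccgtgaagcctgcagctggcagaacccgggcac
Rhag (chr17:40810899-40811198, plus strand): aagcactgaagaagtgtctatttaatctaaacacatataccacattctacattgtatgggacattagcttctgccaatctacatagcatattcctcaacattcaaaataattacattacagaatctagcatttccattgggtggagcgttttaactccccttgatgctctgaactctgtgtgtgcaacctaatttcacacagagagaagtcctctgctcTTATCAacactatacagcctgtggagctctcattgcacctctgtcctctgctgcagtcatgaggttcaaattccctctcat
Epb42 (chr2:121036828-121037127, minus strand): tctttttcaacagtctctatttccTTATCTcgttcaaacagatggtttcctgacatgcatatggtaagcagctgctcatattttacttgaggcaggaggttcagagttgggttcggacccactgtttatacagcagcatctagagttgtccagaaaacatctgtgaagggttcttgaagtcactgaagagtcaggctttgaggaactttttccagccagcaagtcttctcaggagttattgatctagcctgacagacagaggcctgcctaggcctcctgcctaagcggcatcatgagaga
Alas2 (chrX:150547167-150547466, plus strand): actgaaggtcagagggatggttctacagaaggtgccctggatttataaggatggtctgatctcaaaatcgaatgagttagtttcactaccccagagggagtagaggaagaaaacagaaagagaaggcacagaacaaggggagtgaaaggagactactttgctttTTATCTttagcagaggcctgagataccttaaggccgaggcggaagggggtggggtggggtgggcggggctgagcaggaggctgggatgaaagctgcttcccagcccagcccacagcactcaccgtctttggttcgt
Add2 (chr6:86028431-86028730, plus strand): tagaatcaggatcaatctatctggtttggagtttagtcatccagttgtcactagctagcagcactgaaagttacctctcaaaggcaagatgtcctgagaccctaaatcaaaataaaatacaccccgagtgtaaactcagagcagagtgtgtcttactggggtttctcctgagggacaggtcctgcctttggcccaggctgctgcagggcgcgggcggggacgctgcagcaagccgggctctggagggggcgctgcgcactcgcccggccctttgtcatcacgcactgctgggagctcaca
Klf1 (chr8:84901732-84902031, plus strand): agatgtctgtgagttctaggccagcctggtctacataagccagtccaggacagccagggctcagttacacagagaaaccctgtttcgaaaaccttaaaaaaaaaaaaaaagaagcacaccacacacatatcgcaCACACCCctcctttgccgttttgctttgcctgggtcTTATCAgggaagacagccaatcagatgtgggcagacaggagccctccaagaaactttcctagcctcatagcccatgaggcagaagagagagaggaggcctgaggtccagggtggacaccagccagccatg

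A GATA motif stood in 16 of the 26 erythroid windows (61.5%), where 18.6% of all 32851 windows counted held one. It began 43 bases before the start in Rhd, 31 in Rhag, 86 in Alas2, 226 in Epb42 and 80 in Klf1, and Add2 had none. The CACCC box was in 3 of the 26 windows (11.5%, against 7.95% of all windows counted), those of Gata1, Klf1 and Trim10. The GATA motif was counted again by whether a gene was lower at an unadjusted limma p under 0.05. Of the 9 genes lower at an unadjusted p under 0.05, 6 had a window and 4 held a GATA motif, and of the other 22 genes 17 had a window and 12 held one. A match is a run of letters and no evidence of binding, and a window without one says nothing about the factor.

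The arrays were checked first. Sox11 had 9.24, 9.13, 8.93 and 9.12 log2 signal in the knockout replicates 1 to 4, against 11.76, 11.81, 11.72 and 11.86 in the wild type replicates, a change of -2.69 (SE 0.08) with no overlap, as the labels have it. The 8 arrays correlated at 0.987 to 0.995 across genes, which are not independent replicates. Of 11 marker genes of the urogenital ridge, 0 lay below the 25th percentile of all genes by level. Among them the duct receptor gene Ret was higher in knockouts (0.41, limma adjusted p = 0.0220) and the nephron progenitor gene Six2 lower (-0.48, limma adjusted p = 0.0437), and each call was lost under several alternatives. The Y-linked genes Eif2s3y and Kdm5d were high in 2 knockout and 1 wild type arrays. Ribosomal protein genes were above 0 in 52 of 61 cases, with a summed linear signal of 268085 to 274529 in knockout and 249553 to 260231 in wild type arrays, and the part of this in the results below was not tested.

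Wild type replicate 4 had a lower erythroid signal than the other wild type arrays. For each array the median deviation of the 31 genes from their own means over all arrays was taken, on the log2 scale. It was -0.22, -0.05, 0.02 and -0.15 in knockout replicates 1 to 4, against 0.15, 0.12, 0.27 and -0.12 in wild type replicates 1 to 4. Wild type replicates 1, 2 and 3 thus lay above every knockout array, and replicate 4 lay among them. Its gap to the next wild type array was 0.620 of their range, which is below Dixon's critical value for an outlier among 4. Wild type replicate 4 was the lowest wild type array in 22 of the 31 genes, where it was the lowest in 29.3% of all genes. Replicate 3 was the highest in 19 of the 31, against 23.4% of all genes. Among knockouts, replicate 1 was the lowest in 13 genes and replicate 3 the highest in 15, against 23.9% and 23.3% of all genes. Relative to the mean of the other 3 wild type arrays, replicate 4 was lower in 28 of 31 genes. The median difference was -0.32, against 0.0053 over all genes, of which 9474 of 19356 were lower. The knockout mean was below wild type replicate 4 in 13 of the 31 genes, and in 9913 of all 19356.

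**Figure D1:**
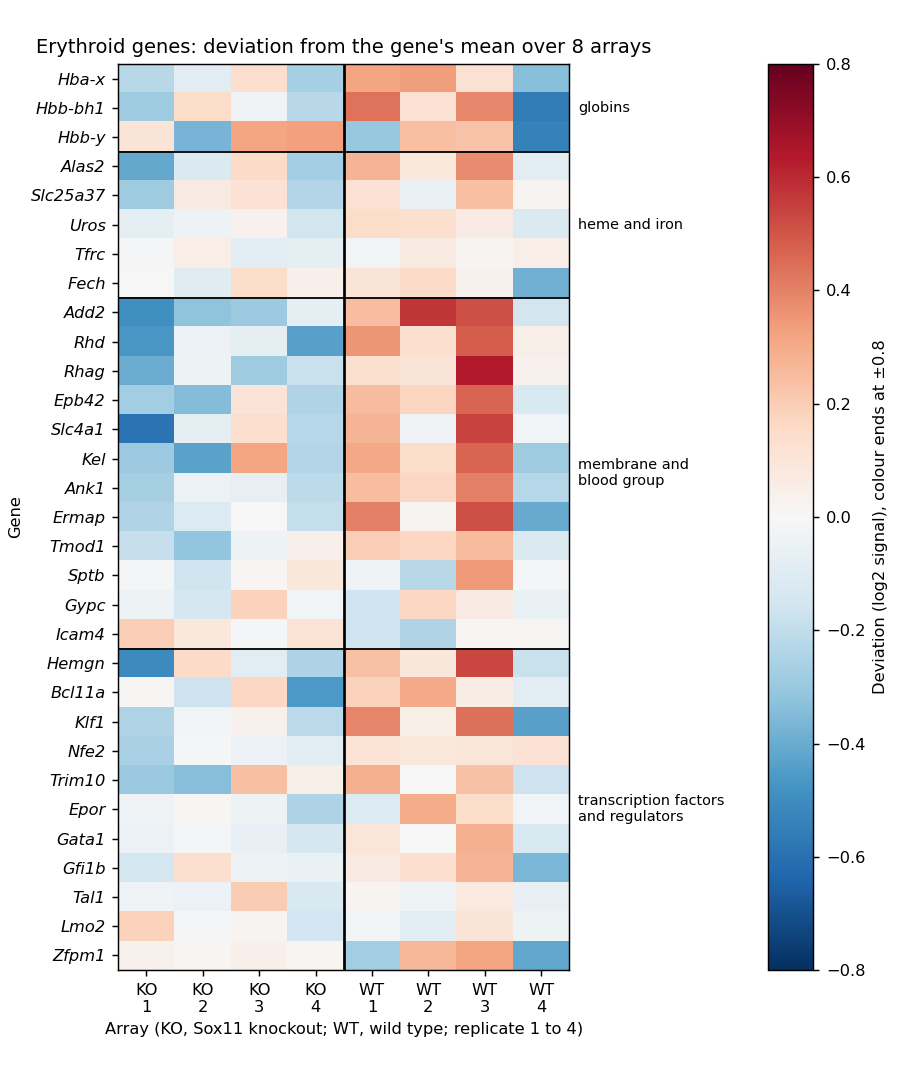
Each row is 1 of 31 erythroid genes and each column 1 array (knockout replicates 1 to 4, then wild type replicates 1 to 4), and colour gives the deviation from the gene's mean over the 8 arrays in log2 signal. Wild type replicates 1, 2 and 3 are mostly red. Wild type replicate 4, the lowest wild type array in 22 genes, is mostly blue, as are knockout replicates 1, 2 and 4. Knockout replicate 3 is mixed (median deviation 0.02).

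Spread between arrays was wide for these genes. The median SD was 0.14 in knockout and 0.24 in wild type arrays, against 0.10 and 0.12 over all genes. In wild type 13 of the 31 had an SD above 0.25 (9.49% of all genes did), and in knockout 6 of 31 (6.15% of all genes). Zfpm1 varied least among knockouts (SD 0.013) and Nfe2 least among wild types (SD 0.015).

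Read against all genes, the counts of differences were as follows. By limma's test with Benjamini-Hochberg adjustment over 19356 genes, 0 of the 31 were lower and 0 higher at an adjusted p under 0.05, where 1.08% of all genes were lower and 0.362% higher. At an unadjusted p under 0.05 there were 9 lower (29.0%) and 1 higher (3.23%), against 9.38% and 7.29% of all genes. In 3 genes, Rhd, Rhag and Nfe2, the highest knockout array was below the lowest wild type array (9.68%, against 6.47% of all genes), and in 0 the lowest knockout array was above the highest wild type array (4.04% of all genes).

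Without wild type replicate 4 the same counts were larger. That array was singled out for its low values in these same 31 genes. Larger counts without it therefore follow in part from the choice, and they are a description only. At an unadjusted limma p under 0.05, 17 of the 31 were lower, against 10.2% of all genes, and 11 had no overlap, with knockout arrays below the 3 remaining wild type arrays, against 10.1% of all genes. Add2 passed the adjusted test (-0.74, SE 0.11, limma adjusted p = 0.0174, within a range of 0.0174 to 0.213 over leaving out each array) and was the 1 member to do so, against 0.992% of all genes. Of the 31, 5 were lower at that p once wild type replicate 1 (9.56% of all genes), wild type replicate 3 (8.39%) or knockout replicate 1 (7.57%) was dropped, and 6 once knockout replicate 4 was (7.18%). Dropping knockout replicate 3 gave 6 genes with knockouts below (8.5% of all genes) and 1, Icam4, with knockouts above (6.53%).

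**Figure D2:**
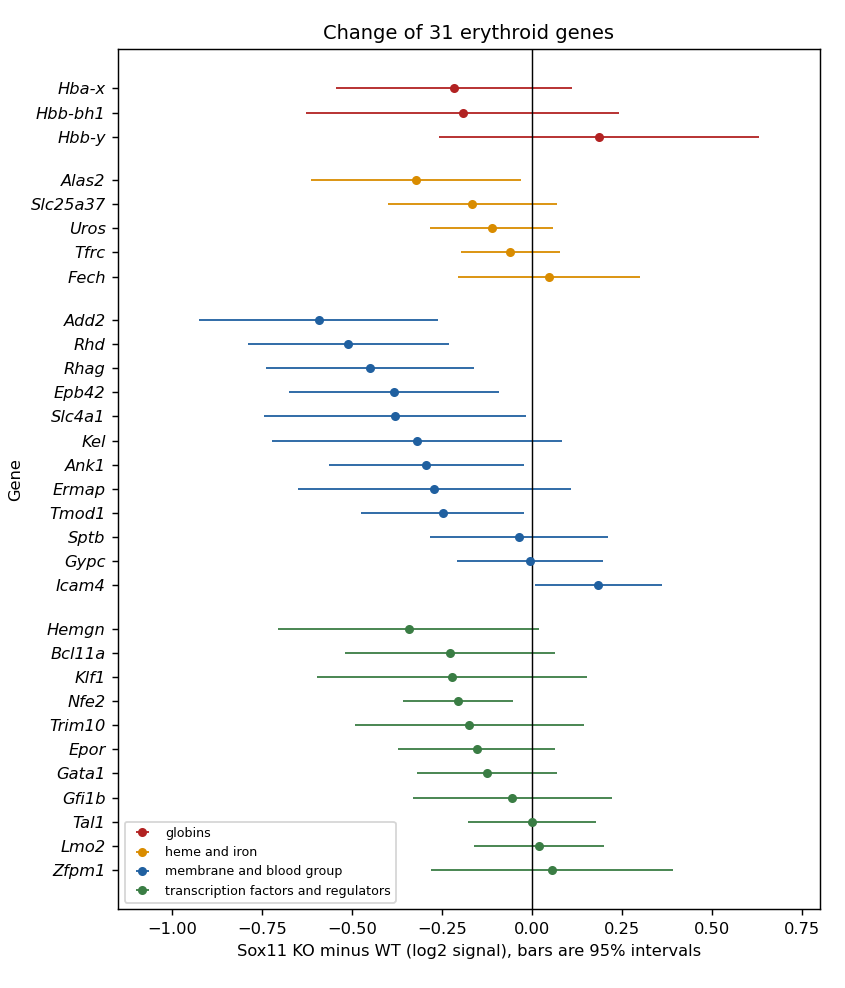
Change of each erythroid gene, Sox11 knockout minus wild type in log2 signal (x axis), with 95% intervals from limma and genes grouped by role (y axis). The membrane and blood group genes reach from -0.59 (Add2) to 0.19 (Icam4), and most intervals of the other groups include 0.

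The membrane skeleton and blood group genes gave the clearest difference. Of 12 measured, 11 were below 0, against 50.1% of all genes, with a median change of -0.31. At an unadjusted limma p under 0.05, 7 were lower and 1 higher, against 9.38% and 7.29% of all genes, and 0 passed the adjusted test. Rhd encodes the Rh blood group protein, a multi-pass protein of the red cell membrane. It had 6.75, 7.17, 7.14 and 6.78 log2 signal in knockout replicates 1 to 4, against 7.57, 7.35, 7.70 and 7.26 in wild type. All knockout arrays were below all wild type arrays, and the change was -0.51 (SE 0.13, 1.42-fold lower, limma adjusted p = 0.0827). Rhag, the glycoprotein that carries Rh to the membrane and conducts ammonia, had 6.35, 6.71, 6.46 and 6.57 in knockout, against 6.87, 6.85, 7.38 and 6.78 in wild type. The groups did not overlap either, though wild type replicate 3 was far above the rest, and the change was -0.45 (SE 0.13, limma adjusted p = 0.126).

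Add2 encodes beta-adducin, which caps and links actin to spectrin and is also made in neurons. It had 6.74, 6.91, 6.94 and 7.15 log2 signal in knockout replicates, against 7.47, 7.80, 7.75 and 7.08 in wild type. Knockout replicate 4 lay just above wild type replicate 4 and otherwise the groups were apart, with a change of -0.59 (SE 0.15, 1.51-fold lower, limma adjusted p = 0.0859). Epb42, whose protein ties band 3 to ankyrin, had 6.70, 6.63, 7.08 and 6.74 in knockout, against 7.23, 7.15, 7.45 and 6.85 in wild type (-0.38, SE 0.13, limma adjusted p = 0.187). Slc4a1, band 3 itself, the anion exchanger of red cells, had 9.28, 9.80, 10.01 and 9.64 in knockout, against 10.14, 9.84, 10.42 and 9.85 in wild type (-0.38, SE 0.16, limma adjusted p = 0.278). In both, knockout replicate 3 lay above the lowest wild type array. Ank1, the ankyrin that joins band 3 to spectrin, was at -0.29 (SE 0.12), and Tmod1, which caps actin filaments and is also a muscle gene, at -0.25 (SE 0.10), with limma adjusted p-values of 0.262 and 0.257. A second, dimmer probe set of Tmod1 was at 0.02.

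The blood group genes Kel (the Kell protein, a metallopeptidase) and Ermap (the Scianna protein) had wide spreads. Kel had 7.80, 7.66, 8.40 and 7.85 log2 signal in knockout, against 8.40, 8.23, 8.55 and 7.80 in wild type, so the groups overlapped through knockout replicate 3 and wild type replicate 4 (-0.32, SE 0.18). Ermap had 7.57 to 7.81 in knockout, against 8.22, 7.84, 8.33 and 7.41 in wild type, and all knockout arrays lay between wild type replicate 4 and the others (-0.27, SE 0.17). Their limma adjusted p-values were 0.406 and 0.451. Without wild type replicate 4, an array singled out for its low values in these genes, the changes were -0.47 and -0.45. Over leaving out each array in turn, Kel ran from -0.48 to -0.22 and Ermap from -0.45 to -0.14. Sptb (beta-spectrin) and Gypc (glycophorin C, which anchors the skeleton) differed little, at -0.04 (95% interval -0.28 to 0.21) and -0.0062 (95% interval -0.21 to 0.20). Icam4, the LW blood group adhesion molecule, went the other way at 0.19 (SE 0.08, limma adjusted p = 0.278). Its level lay below the 25th percentile of all genes, as did that of Gata1.

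**Figure D3:**
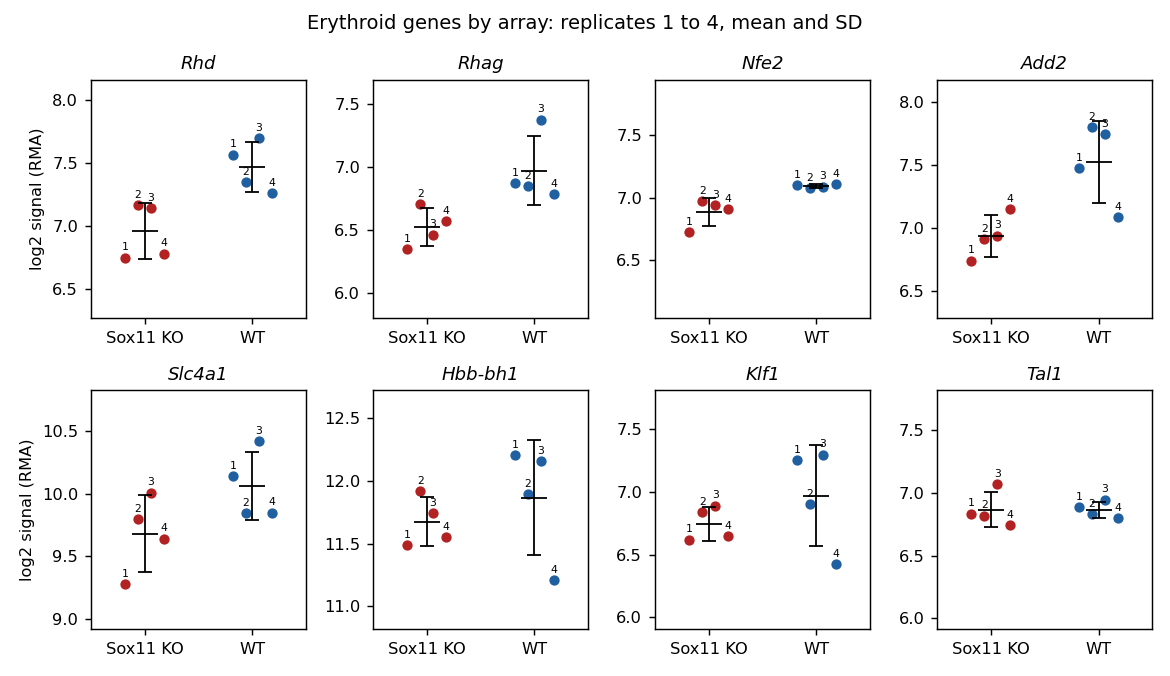
Log2 signal (y axis) of 8 erythroid genes in Sox11 knockout (left) and wild type (right) arrays, numbered by replicate, with bars for the mean and SD of 4 arrays and the same height of axis in each panel. Rhd, Rhag and Nfe2 do not overlap, wild type replicate 4 is the lowest point in Hbb-bh1 and Klf1, and Tal1 is level.

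Heme and iron genes differed less. Alas2, the red cell form of the enzyme that starts heme synthesis, had 8.40, 8.70, 8.97 and 8.54 log2 signal in knockout, against 9.09, 8.90, 9.19 and 8.72 in wild type. The ranges overlapped, and the change was -0.32 (SE 0.13, limma adjusted p = 0.253). Slc25a37, the mitochondrial iron importer mitoferrin, was at -0.17 (SE 0.11), Uros, which closes the porphyrin ring, at -0.11 (SE 0.08), and Tfrc, the transferrin receptor used by all dividing cells, at -0.06 (SE 0.06). Fech, which puts iron into the ring, was at 0.05 (SE 0.11), with wild type replicate 4 at 8.58 and every other array at 8.87 or above. The limma adjusted p-values of these 4 lay between 0.459 and 0.863. The group's median change was -0.11, with 4 of 5 below 0.

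Of the 3 embryonic globins, 2 were below 0 and 1 above, and 0 were past an unadjusted p under 0.05. Of all genes, 9.38% were lower and 7.29% higher at that p. Hbb-bh1, an embryonic beta-type globin, had 11.49, 11.92, 11.74 and 11.55 log2 signal in knockout, against 12.21, 11.89, 12.16 and 11.21 in wild type (-0.19, SE 0.20, limma adjusted p = 0.652). Hba-x, the embryonic alpha-type zeta globin, had 10.69, 10.82, 11.05 and 10.65 in knockout, against 11.23, 11.24, 11.03 and 10.57 in wild type (-0.22, SE 0.15, limma adjusted p = 0.486). In both, wild type replicate 4 was the lowest of all 8 arrays, and without it the changes were -0.41 and -0.37. These larger changes follow in part from the choice of that array. Over leaving out each array in turn, Hbb-bh1 ran from -0.41 to -0.08 and Hba-x from -0.37 to -0.14. Hbb-y, the epsilon-type embryonic globin, had 13.63, 13.15, 13.84 and 13.85 in knockout, against 13.23, 13.77, 13.76 and 12.99 in wild type. It was at 0.19 (SE 0.20, limma adjusted p = 0.671), with wild type replicate 4 again lowest but wild type replicate 1 and knockout replicate 2 low as well. Hbb-y was at 0.04 without wild type replicate 4, and ran from 0.04 to 0.34 over leaving out each array. Its signal lay near the top of the array's range, which ended at 14.62, where differences can be understated. Globin genes resemble each other, so probes for 1 may also read another, and probe sets that name several globins were not used here.

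Of 11 transcription factors and other regulators 9 were below 0, with a median of -0.15. At an unadjusted p under 0.05, 1 was lower, where 9.38% of all genes were. The 1 was Nfe2, the red cell and platelet subunit of the factor NF-E2, which had 6.73, 6.97, 6.94 and 6.91 log2 signal in knockout, against 7.10, 7.07, 7.09 and 7.11 in wild type. The groups did not overlap, wild type replicate 4 was not low, and the change was -0.20 (SE 0.07, limma adjusted p = 0.182). Hemgn, a nuclear protein of blood cells, was at -0.34 (SE 0.16), and Bcl11a, which represses embryonic globins in later red cells and is also made in neurons, at -0.23 (SE 0.13). Klf1 had 6.62, 6.84, 6.89 and 6.64 in knockout, against 7.25, 6.90, 7.30 and 6.43 in wild type, with all knockout arrays between wild type replicate 4 and the others (-0.22, SE 0.17, limma adjusted p = 0.535). Without wild type replicate 4, an array singled out for its low values in these genes, Klf1 was at -0.40 (limma adjusted p = 0.121). Over leaving out each array in turn, Klf1 ran from -0.40 to -0.11. Trim10, a protein of red cell maturation, was at -0.17 (SE 0.14), the erythropoietin receptor gene Epor at -0.15 (SE 0.10) and Gata1 at -0.13 (SE 0.09).

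Tal1, Lmo2, Gfi1b and Zfpm1 were close to 0. Tal1 had 6.83, 6.82, 7.07 and 6.74 log2 signal in knockout, against 6.89, 6.83, 6.94 and 6.80 in wild type (-0.00026, 95% interval -0.18 to 0.18). Lmo2, which bridges TAL1 and GATA1 and is also made in endothelium, had 9.22, 9.02, 9.06 and 8.89 in knockout, against 8.95 to 9.14 in wild type (0.02, 95% interval -0.16 to 0.20). Gfi1b, a repressor of red cell and platelet precursors, was at -0.05 (95% interval -0.33 to 0.22). Zfpm1 had 9.38 to 9.41 in knockout, against 9.09, 9.63, 9.68 and 8.95 in wild type, with wild type arrays on both sides of the knockouts (0.06, 95% interval -0.28 to 0.39).

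Other genes of the red cell pathway, taken from named lists, showed less. Of 95 listed, 81 were measured, 49 were below 0, and the median change was -0.03. By limma over all genes 0 passed. At an unadjusted p under 0.05 there were 10 lower and 3 higher, against 9.38% and 7.29% of all genes. Among heme synthesis and transport genes 11 of 13 were below 0, with a median of -0.09, and 4 were lower at that p. The median deviation of this list by array was -0.04, -0.07, -0.03 and -0.10 in knockout replicates 1 to 4, against 0.08, 0.12, 0.14 and 0.01 in wild type, with no overlap. Among them the mitochondrial transporter gene Abcb10 was at -0.28 (SE 0.08, limma adjusted p = 0.130) and Urod, an enzyme of the porphyrin path, at -0.19 (SE 0.06, limma adjusted p = 0.162), both with no overlap between genotypes. In the iron list 6 of 12 were below 0 (median 0.0054), with the iron importer gene Slc11a2 at -0.23 (SE 0.06, limma adjusted p = 0.106, no overlap) and the exporter gene Slc40a1 at 0.23 (SE 0.13, limma adjusted p = 0.401).

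Other membrane genes, many of them made in most tissues, had 6 of 15 below 0 (median 0.01), with Cd47, a surface signal against phagocytosis, at 0.29 (limma adjusted p = 0.130) and the water channel gene Aqp1 at 0.19 (0.438). Other regulators had 12 of 15 below 0 (median -0.08), with Bach1, a heme-sensing repressor, at -0.26 (limma adjusted p = 0.109) and Tcf3, a partner of TAL1, at -0.18 (0.207). Genes of erythropoietin signalling had 7 of 12 below 0 (median -0.05), with the kinase gene Pim1 at -0.31 (limma adjusted p = 0.131) and Socs2 at -0.20 (0.321). Red cell enzymes and antioxidants had 6 of 11 below 0 (median -0.06), with Pklr, the pyruvate kinase of liver and red cells, at -0.57 (limma adjusted p = 0.107) and the carbonic anhydrase gene Car1 at 0.33 (0.163). The 3 other globin genes with a probe set of their own, Hbb-bh2 (0.21), Hbq1a (0.17) and Hbq1b (-0.0070), lay below the 25th percentile of genes by level.

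Markers of other blood and vessel cells had medians above 0. Endothelial genes were above 0 in 11 of 14 (median 0.05), macrophage and myeloid genes in 10 of 15 (median 0.04), megakaryocyte and platelet genes in 7 of 7 (median 0.13) and blood progenitor genes in 6 of 9 (median 0.09). Among the 4 lists limma called 0 genes over all genes, and at an unadjusted p under 0.05 only the progenitor genes Myb and Cd34 differed. Myb, a factor of blood progenitors that is also made in other dividing cells, was at -0.51 (SE 0.11, limma adjusted p = 0.0608), and Cd34, also an endothelial surface protein, at 0.18 (SE 0.06, limma adjusted p = 0.193). The lowest p-values of the other lists were those of Emcn (0.18) and Robo4 (0.13) in endothelium, Mrc1 (0.22) and Ptprc (0.11) in macrophages, and Itgb3 (0.22) and Gp9 (0.22) in platelets, with limma adjusted p-values of 0.375 to 0.532. Liver markers, whose organ makes red cells soon after this stage, were above 0 in 5 of 7 (median 0.05, with Afp at 0.18 and Hnf4a at 0.13), and 3 of the 7 were below the 25th percentile by level.

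The summed linear signals of these lists overlapped between genotypes. So did that of the erythroid genes, at 23032 to 29263 in knockout and 19965 to 30915 in wild type arrays. Endothelial genes summed to 13254 to 15731 in knockout and 11349 to 14670 in wild type arrays, macrophage genes to 2601 to 3413 and 2433 to 3334, and platelet genes to 1663 to 2405 and 1342 to 2657. Progenitor genes summed to 5860 to 6555 in knockout and 5717 to 6362 in wild type, and liver genes to 551 to 646 and 536 to 618. Wild type replicate 4 was also the lowest array in endothelial genes (median deviation -0.17), and was at -0.15 in macrophage genes, where wild type replicate 1 was at -0.16, and at 0.01 in platelet genes. The part of these in the erythroid values was not tested.

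**Figure D4:**
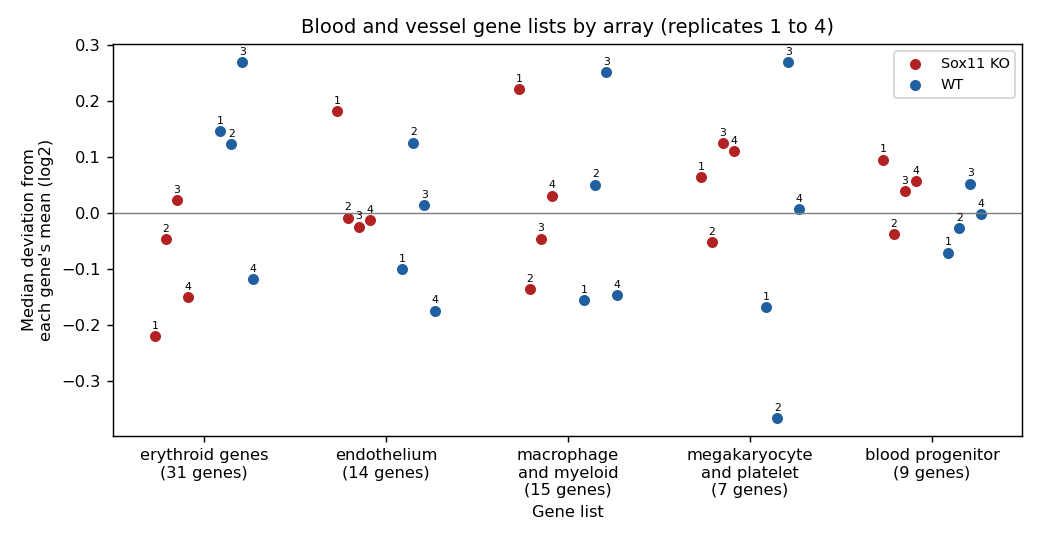
Median deviation of the genes of each list from their own means, in log2 (y axis), for each array (points, numbered by replicate), with knockout left of wild type in each list. In the erythroid list wild type replicates 1, 2 and 3 (0.12 to 0.27) lie above all knockout arrays and replicate 4 (-0.12) among them, and in the other 4 lists drawn the genotypes overlap.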

How the data were processed

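Total RNA of 8 samples of dissected ridge was depleted of ribosomal RNA, amplified, biotin-labelled and hybridised to 1 array each with Affymetrix kits, per the labels' protocols. The authors deposited log2 signal values, for which the submitters' processing notes list RMA and Partek, with neither version nor settings. Their span of 4.30 to 14.62 fits a log2 scale. RMA as usually run equalises the arrays' distributions, which hides a shift of all transcripts together, and 4 arrays per genotype limit the precision.

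Of 27478 probe sets, 21103 named 1 gene in the platform's annotation, 1531 named several and 4844 none, and 0 symbols changed name through RefSeq's gene identifiers. The probe set with the highest mean was kept for each of 19356 genes. Genotypes were compared across all genes with limma 3.58.1 in R 4.3.3 (two-sided, eBayes with no trend and a single genotype term), with Benjamini-Hochberg adjustment over all genes. Changes are knockout minus wild type. No gene was filtered on level. As a check of the code, the fit was also run on simulated data in which genes varied independently. That run does not speak to genes that move together by array. Figures were drawn with matplotlib 3.10.9.

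The members, the lists of pathway and marker genes, and the motifs were chosen with earlier results of these data known. The text names all members and, of each list, the genes past the threshold (up to 4) or else the 2 with the lowest p. Hbq1b was named after its value was seen. Alternatives covered scaling, level filters, probe set choice, moderation, array weights, a replicate block, the Y-linked signal, the threshold and leaving out each array.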

Additional observations from a re-analysis of the deposited data

Results flagged for a closer look

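In the wild type, Rhag on replicate 3 stood far from the other arrays of its genotype, at 7.38 log2 signal against 6.78 to 6.87, a gap of 0.849 of the group's range. It was the 1 such case among 64 groups of 4 arrays examined (each of the 31 genes and their median deviation by array, in both genotypes), where chance gives about 1 in 20. Without that array Rhag was at -0.31 (limma adjusted p = 0.167), and its groups still did not overlap.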

How the results depend on the processing

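No erythroid gene passed the adjusted test in either direction under any alternative, apart from those named next. Add2 passed with array weights (-0.65, limma adjusted p = 0.0396, 1 gene), where 270 of 19356 genes were called lower and 95 higher. It also passed without wild type replicate 4, where 192 were called lower and 51 higher. At an adjusted p under 0.10, 2 genes, Rhd and Add2, passed, where 465 of all genes were called lower and 218 higher. With 1 array left out, 0 to 1 erythroid genes passed, where 0.455% to 0.992% of all genes were called lower. In these fits 22 to 28 were below 0, and the median change was -0.26 to -0.12. Knockouts lay below with no overlap in 3 to 11 genes (7.68% to 10.1% of all genes). An unadjusted limma p under 0.05 in the lower direction was reached by 5 to 17 (7.18% to 10.2% of all genes). Among the 18 genes at or above the median level 14 were below 0, 3 were lower at an unadjusted p and 0 had no overlap, fewer genes being counted. Without moderation 4 were lower at an unadjusted p. For this level filter, no moderation and the replicate block, the share of all genes lower at an unadjusted p was not counted. Nor were the shares of all genes below 0 or without overlap under the level filter. The member counts by these rules thus have no background beside them. The replicate block left 0 called and 10 lower at an unadjusted p. Same-numbered arrays correlated in their deviations from genotype means at only -0.165, 0.0897, -0.0397 and 0.0621, so the numbers were not taken as pairs. Only knockout replicate 2 and wild type replicate 4 correlated best with the array of their own number. Within the arrays without Y-linked signal (2 knockout, 3 wild type) 28 genes were below 0 with a median of -0.17, and within those with it (2 and 1) 25 with a median of -0.20, a split chosen after seeing the data and with no test.

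Over all genes 209 were lower and 70 higher (74.9% lower). Median centring gave 137 and 82 (62.6%), no moderation 48 and 7, the replicate block 117 lower, the Y-linked covariate 115 and 33, and an adjusted p under 0.10 465 and 218, while leaving out 1 array gave 88 to 192 lower and 17 to 55 higher. Of 326 values of the erythroid genes on all arrays, 6 changed sign, each close to 0: Gypc (0.02541 centred, 0.0479 quantile-normalized, 0.001996 weighted), Tal1 (0.0314 centred), Sptb (0.0178 quantile-normalized) and Zfpm1 (-0.0029 weighted). With 1 array left out, Gypc ran from -0.0677 to 0.0471, Tal1 from -0.0675 to 0.0411, Sptb from -0.116 to 0.0724, Gfi1b from -0.186 to 0.0260, Fech from -0.0728 to 0.106, Lmo2 from -0.0370 to 0.0741 and Zfpm1 from -0.0740 to 0.171. Of the other lists, Myb passed under 3 settings (limma adjusted p = 0.0366 to 0.04985), Cd47 without wild type replicate 4 (0.0363) and Pklr without knockout replicate 2 (0.0338). The cause of these shifts was not tested. Levels near the lower end of the range understate differences.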
